A study of Drosophila melanogaster with 4 samples.

Results

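The genes described here encode translation factors of Drosophila melanogaster, the proteins that help ribosomes begin, extend and finish a polypeptide. They were taken by name alone, as the protein-coding genes in Ensembl 115 (BDGP6.54) with a symbol beginning with eEF (elongation), eRF (release) or eIF (initiation). This gave 54 of 13986 protein-coding genes, namely 8 elongation factors, 2 release factors and 44 initiation factors. No measured value entered the choice. Because the symbol set the class, eEF5 stands with the elongation factors, although the same protein was long known as eIF5A. Together these genes had 1603 of the 232302 transcription start sites (TSSs) in the embryo data.

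The embryos were Canton S wild type, 0 to 12 h old, taken from population cages with no other treatment, and so each library mixed many animals and stages. Capped small RNA (csRNA-seq), in which short RNAs with a 5′ cap are sequenced so that the first base of a read marks where a transcript began, was measured in 3 libraries, next to 1 input library that was not analysed here. The study used these TSSs to locate core promoter motifs. There is no mutant or treated group, so the comparison made here is between classes of genes.

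During initiation, eIF2 brings the initiator tRNA to the small ribosomal subunit, eIF3 holds the parts together there, and the eIF4 proteins bind the mRNA cap and unwind the leader. During elongation, eEF1alpha delivers each aminoacyl-tRNA and eEF2 moves the ribosome along by a codon, and at a stop codon eRF1 and eRF3 free the finished chain. Elongation factors are used at every codon and initiation factors at each round of translation, and in animals eEF1alpha and eEF2 are among the most abundant proteins of a cell.

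Coverage is the deposited value, in reads per 10000000, and the promoter coverage of a gene is the sum over its TSSs no more than 200 bp from any of its annotated transcript starts, on the gene's strand. A 5′ end is counted once per RNA whatever the gene's length, so no correction for length was made. Each TSS carries the reads of only 1 library (7299457, 5931389 or 4070746 reads, called the largest, middle and smallest), so 1 read is worth 1.37, 1.69 or 2.46 units. How the library was chosen for each TSS is not given in the sources used here, so a sum over TSSs, or a ratio between genes, can mix libraries in unequal parts. Counting intervals of ratios do not cover this, and each ratio is therefore also given with the TSSs of 1 library left out, which removes those positions altogether. There is no spread between replicates, and no test between gene classes was made. Values are given with the counting standard error (SE) of the recovered reads, which covers counting error only, since PCR copies of a molecule are not told apart. Whether RNA of a gene was low in all cells or present in few cells cannot be told apart in whole embryos. Of 8 embryonic patterning genes, 8 had TSSs, with coverage between 143 (ftz) and 8529 (Kr). Of 6 genes of adult or germ line tissues, 5 had no TSS and Yp3 had 2 TSSs with coverage of 13.5.

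The genes that drive elongation had the highest promoter coverage of the translation factors. The median was 4041 over the 8 elongation factors (range 54.7 to 25389.7), 1948 over the 2 release factors and 483 over the 44 initiation factors (range 0 to 19525). The ratio of the elongation median to the initiation median was 3.07 on the log2 scale. All protein-coding genes had a median of 61.6. A TSS was found for 46 of the 54 translation factor genes, against 69.9% of all protein-coding genes. The 8 genes without one were all initiation factors by symbol, and with these left out the initiation median was 698.

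**Figure D1:**
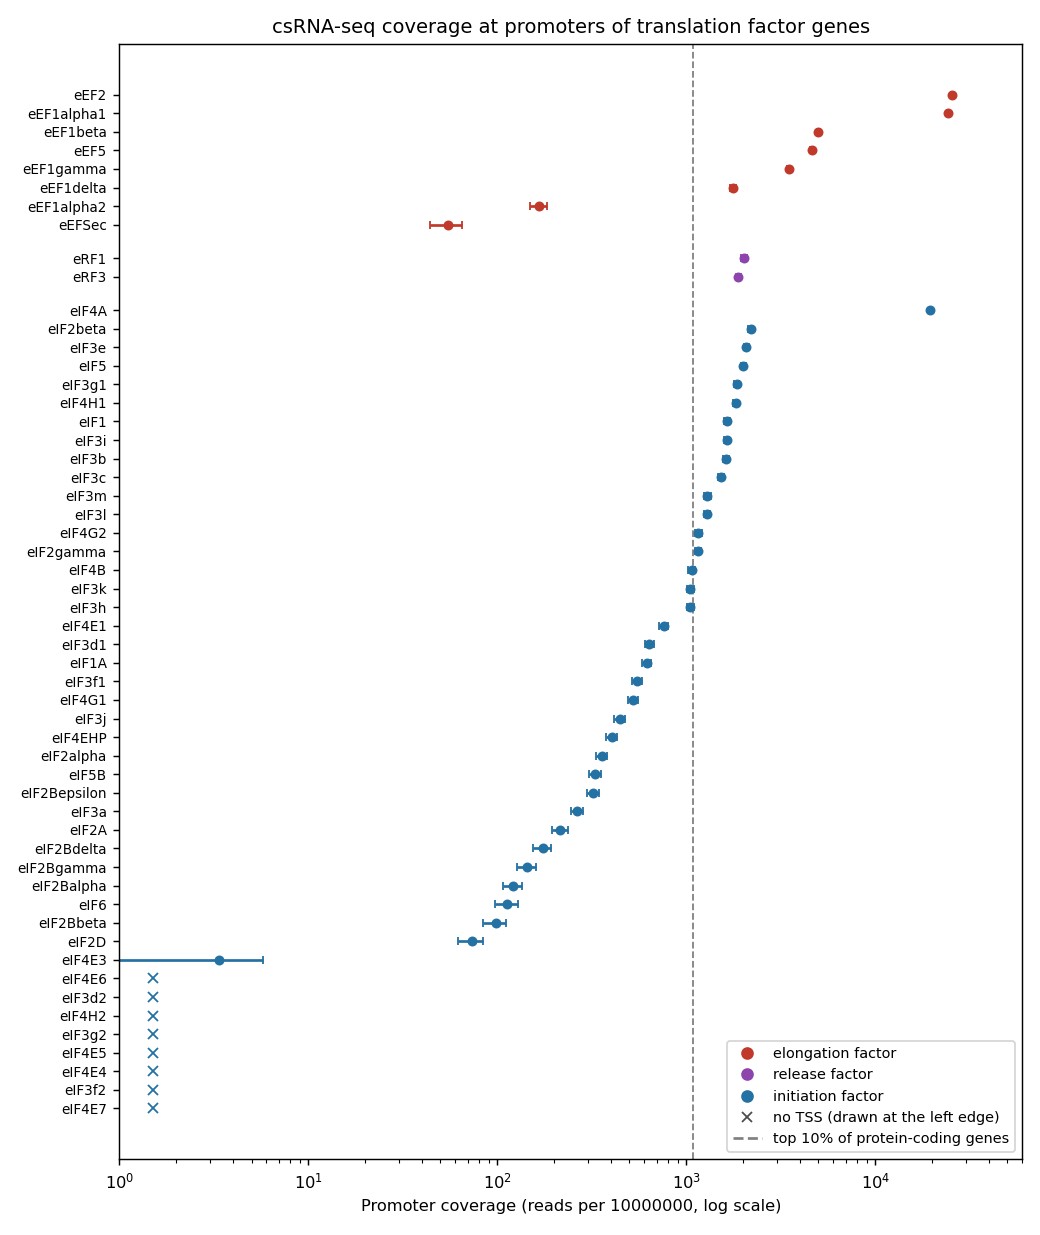
Promoter coverage (reads per 10000000, log scale) of each translation factor gene, with elongation factors in red, release factors in purple and initiation factors in blue. Bars are counting SEs, crosses are genes with no TSS, and the dashed line is the 90th percentile of protein-coding genes (1078). Of the elongation factors 6 of 8 lie to the right of the line, and of the initiation factors 14 of 44.

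Genes of the highest coverage were also counted. The top 10% of protein-coding genes (10.0% by construction) began at a coverage of 1078, and 22 of the 54 translation factor genes were above it. They were 6 of 8 elongation factors, 2 of 2 release factors and 14 of 44 initiation factors. Just under the threshold were eIF4B at 1067, eIF3k at 1049.6 and eIF3h at 1048, each nearer to it than its own counting SE of 44.5 to 46.1. Summed over all 54 genes, coverage was 118666, of which the elongation factors held 54.5%, the release factors 3.28% and the initiation factors 42.2%. Only 3 genes, eEF2, eEF1alpha1 and eIF4A, made up 58.3% of that sum.

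Of the elongation factors, eEF2 and eEF1alpha1 had the highest summed coverage, though for eEF2 this rested on 1 library. eEF2 (FBgn0000559, the translocase, arm 2L, 21677913 to 21682164, minus strand) had a promoter coverage of 25389.7 ± 247. eEF1alpha1 (FBgn0284245, the tRNA carrier, arm 2R, 11891135 to 11895762, plus strand) had 24229 ± 213. The ratio of eEF2 to eEF1alpha1 was 1.05 (95% counting interval 1.02 to 1.08). However, 94.8% of the eEF2 coverage came from TSSs whose value was taken from the smallest library, and the other TSSs of eEF2 added up to 1330. Without the smallest library eEF2 was thus below eEF1alpha1 (18215), eEF5 (3121), eEF1gamma (2795), eEF1beta (2511) and eEF1delta (1434). For eEF1alpha1 the middle library gave most, and the remaining TSSs added up to 6621. The ratio of eEF2 to eEF1alpha1 was 0.073 without the smallest library and 3.80 without the middle one.

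The other subunits of the eEF1 complex were lower and unequal. eEF1beta (FBgn0028737) had 4993 ± 98.0, eEF1gamma (FBgn0029176) had 3475 ± 78.7 and eEF1delta (FBgn0032198) had 1766 ± 55.8. Coverage was thus 2.83 times higher at eEF1beta than at eEF1delta (95% counting interval 2.63 to 3.04). Leaving out the TSSs of 1 library left 2511 to 4794 at eEF1beta, 1267 to 2889 at eEF1gamma and 692 to 1434 at eEF1delta, and the ratio of eEF1beta to eEF1delta was then 1.75 to 6.93. eEF5 (FBgn0285952), which helps the ribosome past proline-rich stretches, had 4607 ± 89.9, close to eEF1beta (ratio of eEF1beta to eEF5 1.08, 95% counting interval 1.03 to 1.14). Without the TSSs of the largest library eEF5 had 1970.1, and eEF1beta 2680.1. The ratio was 0.805 to 1.36 with 1 library left out, so their order was not stable.

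At the low end of the class were eEF1alpha2 and eEFSec. eEF1alpha2 (FBgn0000557), a paralogue of eEF1alpha1, had 166 ± 16.6 from 8 TSSs and 106 reads. The ratio of eEF1alpha1 to eEF1alpha2 was 146 (95% counting interval 120 to 178), but 44.5 without the middle library and 421 without the largest. How reads that match both paralogues were treated is not given in the sources used here. eEFSec (FBgn0034627), the carrier of selenocysteine tRNA, had 54.7 ± 10.6 from 28 reads, within 1 SE of the median of all protein-coding genes.

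The release factors had similar summed coverage. eRF1 (FBgn0036974), which reads the stop codon, had 2017 ± 65.1, and eRF3 (FBgn0020443), its GTPase partner, had 1880 ± 58.8. The ratio of eRF1 to eRF3 was 1.07, with a 95% counting interval of 0.983 to 1.17 that includes equal coverage. Without the TSSs of the smallest library eRF1 had 853, and without those of the middle library eRF3 had 865. The ratio was then 0.628 without the smallest library and 1.56 without the middle one.

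Of the initiation factors, eIF4A was far above the rest. eIF4A (FBgn0001942, the RNA helicase that unwinds mRNA leaders, arm 2L, 5981764 to 5985909, plus strand) had a coverage of 19525 ± 189, which was 8.92 times that of eIF2beta, the next initiation factor (95% counting interval 8.39 to 9.47). It was 25.7 times that of eIF4E1, the cap-binding protein it acts with (95% counting interval 23.3 to 28.5). Without the TSSs of the middle library eIF4A had 4441, and these ratios were 3.70 to eIF2beta and 7.77 to eIF4E1. Without the largest or the smallest library they were 10.9 (eIF2beta, both) and 35.0 or 38.7 (eIF4E1). The next initiation factors had close values. eIF2beta had 2189.6 ± 64.2, eIF3e had 2070.2 ± 61.2 and eIF5 had 1997 ± 58.1. The ratio of eIF2beta to eIF3e was 1.06 (95% counting interval 0.975 to 1.15), so these neighbours did not differ beyond counting error, but it was 1.70 without the largest library and 0.663 without the middle one. Without the largest library eIF3e had 1019, eIF5 had 1067 and eIF4H1 had 653, so the order of these genes was not stable. Then came eIF3g1 with 1846 ± 59.9, eIF4H1 with 1826 ± 54.3, eIF1 with 1643 ± 57.5 and eIF3i with 1636 ± 55.1.

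Subunits of a complex that are needed in equal number did not have equal promoter coverage. In eIF2, the GTP-binding carrier of the initiator tRNA, eIF2beta had 2189.6, eIF2gamma had 1158 ± 44.4 and eIF2alpha had 356 ± 24.8. eIF2beta was thus 6.14 times above eIF2alpha (95% counting interval 5.30 to 7.12), the subunit that stress kinases phosphorylate. The ratio was 10.6 without the largest library and 4.16 without the middle one. Without the largest library eIF2gamma had 449 and eIF2alpha had 163. The 5 subunits of eIF2B, the exchange factor that reloads eIF2 with GTP, were low as a group, at 97.9 (eIF2Bbeta) to 321 (eIF2Bepsilon) with a median of 143. None of the 5 was in the top 10%. eIF2B as a whole held 0.723% of the summed coverage of the translation factors, and eIF2 held 3.12%.

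The eIF3 complex, the scaffold on the small subunit, was the largest group with 16 genes. Of these, 13 had a TSS, with a median of 1291 and a range of 264 to 2070.2, and 7 were in the top 10%. Its lowest expressed member was eIF3a, the largest subunit of the core, at 264 ± 19.8. eIF3e was 7.83 times above it (95% counting interval 6.69 to 9.16). At eIF3a, the TSSs of the largest library gave most of the value, and 53.5 was left without them, for a ratio of eIF3e to eIF3a of 19.1, against 5.24 without the smallest library. Of the remaining initiation factors, eIF5, the GTPase activator of eIF2, and eIF1, which guards start codon choice, were in the top 10%. eIF1A (616), eIF5B, which joins the subunits (330.3), eIF2A (215), eIF6, which holds the large subunit apart (113), and eIF2D (73.0 ± 11.0) were below it.

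The genes with no TSS all had a covered paralogue. The 8 genes with no TSS were eIF4E4, eIF4E5, eIF4E6, eIF4E7, eIF3d2, eIF3f2, eIF3g2 and eIF4H2. Their covered paralogues, by symbol, were eIF4E1 at 759 ± 38.5, eIF3d1 at 638 ± 32.3, eIF3f1 at 550 ± 32.1, eIF3g1 at 1846 and eIF4H1 at 1826. The list holds no TSS with fewer than 2 reads, so these genes were not detected at this depth, which does not show that they were silent in every cell. eIF4E3 was the lowest gene with a TSS, at 3.37 from 2 reads, and the ratio of eIF4E1 to eIF4E3 was 225 with a wide 95% counting interval of 56.1 to 903. With the largest or the smallest library left out it was 159.7 or 121, and the only TSS of eIF4E3 came from the middle one. eIF4EHP, which binds the cap without eIF4G and represses caudal mRNA in fly embryos, had 403 ± 26.8, and eIF4E1 was 1.88 times above it (95% counting interval 1.60 to 2.22, and 1.46 to 2.37 with 1 library left out). Of the scaffold proteins, eIF4G2, which male germ cells need for meiosis, had 1159 ± 46.5, against 521 ± 31.7 for eIF4G1 on chromosome 4. The ratio of eIF4G2 to eIF4G1 was 2.22 (95% counting interval 1.93 to 2.57, and 1.97 to 2.56 with 1 library left out), but every TSS counted for eIF4G2 also lies near a start of CG33111.

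The spread of start sites was measured in the main promoter, which is the group of TSSs with the most coverage when TSSs more than 100 bp apart are split. It was measured as the share of that coverage at the strongest TSS, and as the width in bp that holds the coverage between its 10th and 90th percentile. All 8 elongation factors, 2 release factors and 35 initiation factors had the 20 reads required. The median share at the strongest TSS was 39.8% for elongation factors (range 16.8 to 70.5) and 28.2% for initiation factors (range 15.1 to 78.1). For the release factors the share was 34.3% (eRF1) and 25.7% (eRF3). The difference between the elongation and initiation medians was 11.6 ± 9.79 points. This ± is a 95% counting error of only the genes at the middle of each class. It does not cover the spread between genes. The median width was 10.5 bp for elongation factors (range 2 to 37), 23.5 bp for release factors and 27 bp for initiation factors (range 2 to 244). The ranges of the share overlap almost entirely. All elongation widths lie within the initiation range, which extends further, up to the 244 bp of eIF4E1. That width spans separate sets of TSSs near different annotated starts, joined because no gap between them exceeded 100 bp. The next widest main promoter was that of eIF2Bbeta, at 101 bp.

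**Figure D2:**
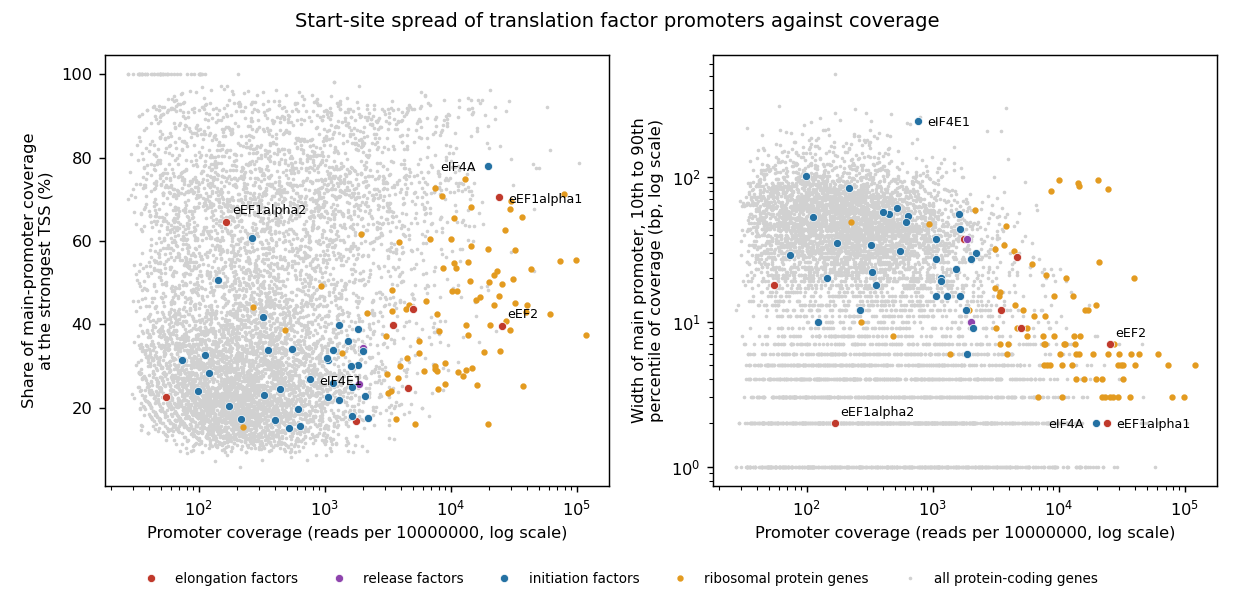
Share of main-promoter coverage at the strongest TSS (%, left) and width from the 10th to the 90th percentile of coverage (bp, log scale, right) against promoter coverage (reads per 10000000, log scale), 1 point per gene with at least 20 reads. eIF4A and eEF1alpha1 lie at the narrow end with a width of 2 bp, whereas eIF4E1 has the widest main promoter of the translation factors at 244 bp. The eIF4E1 promoter joins separate sets of TSSs near different annotated starts.

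Spread moves with coverage, so genes in the top 10% were also compared among themselves. There, the median share was 39.8% for the 6 elongation factors and 30.1% for the 14 initiation factors, against 59.8% for all 1399 such protein-coding genes. The median width was 10.5 bp for these elongation factors and 17 bp for these initiation factors, against 5 bp for all such genes. The difference in median width, elongation minus initiation, was thus -6.5 bp in place of -16.5 bp over all measured genes. Of the 45 translation factors measured, 5 had at least 50% of coverage at the strongest TSS, against 36.3% of all protein-coding genes measured. Within the top 10% the count was 2 of 22, against 60.1% of all such genes.

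The 5 genes were eIF4A (78.1 ± 0.446%), eEF1alpha1 (70.5 ± 0.428%), eEF1alpha2 (64.7 ± 5.26%), eIF3a (60.6 ± 3.72%) and eIF2Bgamma (50.6 ± 5.77%), the last of which is within its counting SE of the limit. At eIF4A a single base, position 5981766 of arm 2L, held 14816 units, and the next base held 1656 (8.72%). At eEF1alpha1, position 11892125 of arm 2R held 17013 units and the next base 4889 (20.2%). By deposited coverage, both genes thus start within 2 bp for most of their RNA. In both, however, the strongest base has its value from the middle library and the next base from the smallest. The counting SEs of these shares do not cover the choice of library. At eEF2, almost the same total as at eEF1alpha1 was spread over several bases. The strongest TSS of eEF2, at position 21682112 of arm 2L, held 10067.0 units (39.6%), and those at 21682108, 21682111 and 21682114 held 18.8%, 14.3% and 10.7%, for a width of 7 bp. All of these eEF2 bases had their value from the smallest library, so the contrast in shape cannot be separated from the library.

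**Figure D3:**
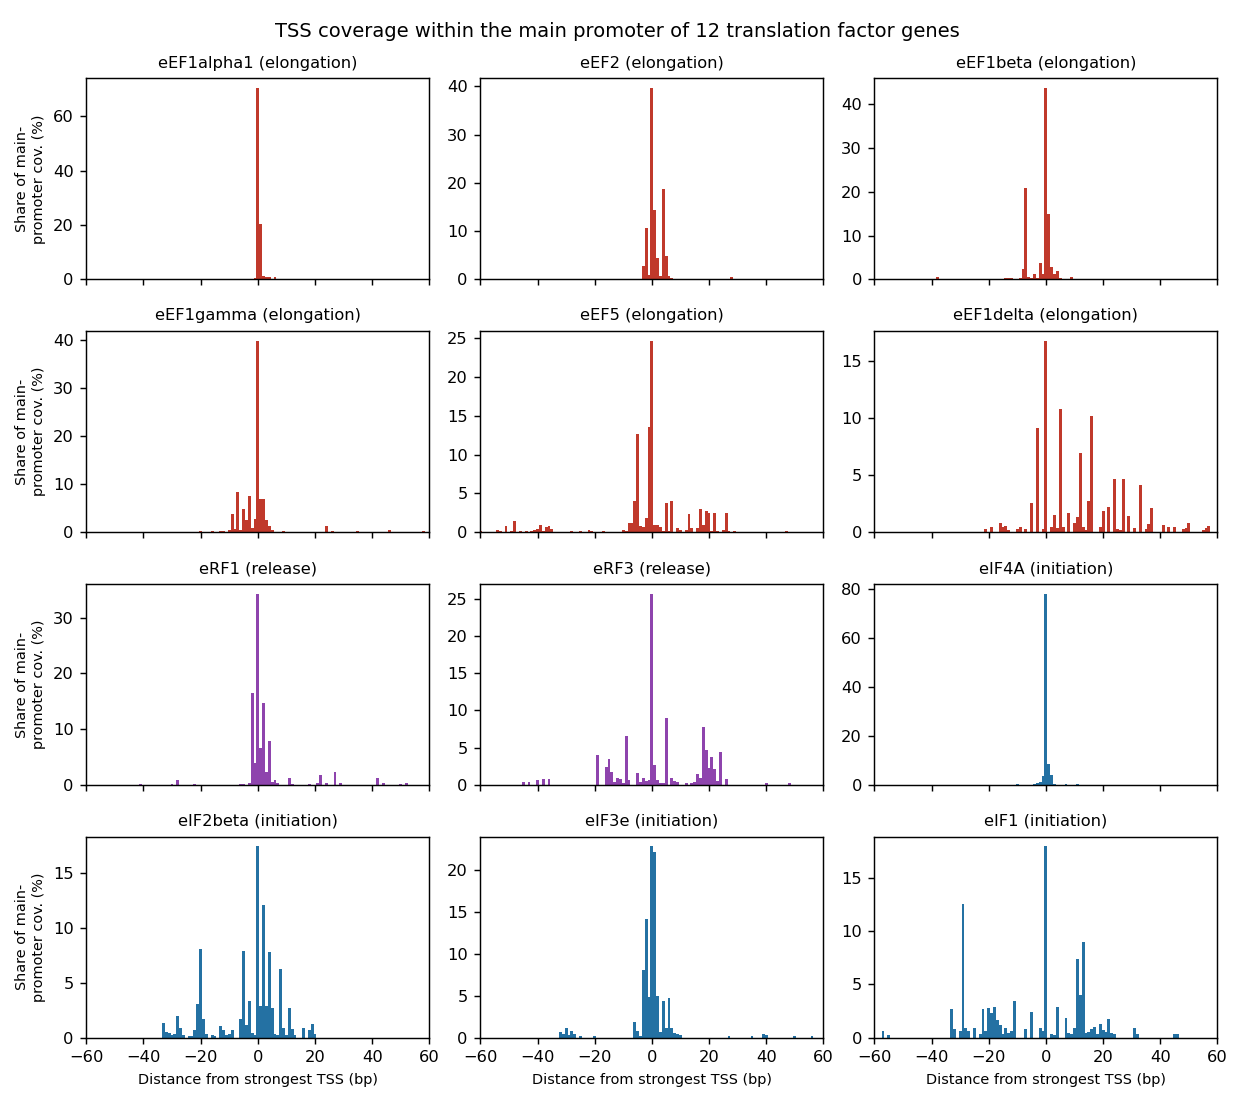
Share of main-promoter coverage (%) at each base within 60 bp of the strongest TSS, for the elongation factors in the top 10%, both release factors and 4 initiation factors. eIF4A and eEF1alpha1 hold 78.1% and 70.5% at 1 base, whereas eEF1delta (16.8%), eIF2beta (17.5%) and eIF1 (17.9%) are spread over many bases.

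The remaining elongation factors ranged from narrow to broad. eEF1beta had 43.6% at the strongest TSS and 20.7% at a base 7 bp upstream, with a width of 9 bp. eEF1gamma had 39.9% and a width of 12 bp, and eEF5 had 24.7% and 28 bp. eEF1delta was the broadest, with 16.8% at the strongest TSS, 10.8%, 10.2% and 9.17% at the following ones, and a width of 37 bp. eEFSec had 22.4% and 18 bp, though from only 28 reads. eRF1 (34.3%, 10 bp) was narrower than eRF3 (25.7%, 37 bp). By deposited coverage, subunits of the same complex thus differed in the shape of initiation as well as in total. The bases within and between these promoters had their values from different libraries, so these contrasts in shape cannot be separated from the library.

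Among the initiation factors the complexes differed somewhat by deposited coverage, with the same limit on the library. The median width was 15 bp in eIF3, 19 bp in eIF2, 34 bp in eIF2B, 37 bp in eIF4 and 44 bp in the rest, and the median share at the strongest TSS was between 23.1% (the rest) and 33.7% (eIF2). Of the highly covered genes, eIF3g1 (30.2%, 6 bp), eIF3e (22.9%, 9 bp), eIF4H1 (38.8%, 12 bp) and eIF3i (25.0%, 15 bp) were narrow, and eIF5 (33.7%, 27 bp), eIF2beta (17.5%, 30 bp) and eIF1 (17.9%, 44 bp) were broad. eIF3e had a low share in a narrow promoter, with 84.5% of its coverage within 5 bp of the strongest TSS.

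The strongest TSS lay 0 to 74 bp downstream of the nearest annotated start in the 45 genes measured. Over all protein-coding genes measured the range was -200 (upstream) to 198 bp. The share of those genes on or downstream of a start was not counted, so the position is not shown to be particular to translation factors. The median distance was 7.5 bp for elongation factors, 3 bp for release factors and 20 bp for initiation factors, against 7 bp for all protein-coding genes. It was within 10 bp in 6 of 8 elongation factors, 2 of 2 release factors and 13 of 35 initiation factors, against 49.7% of all protein-coding genes measured. The farthest were eIF3b (74 bp), eIF3d1 (69 bp), eIF5B (64 bp) and eIF6 (60.0 bp).

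Use of more than 1 promoter was rare. A promoter was called used if it held at least 10% of the gene's coverage and 10 units. None of 8 elongation factors, 1 of 2 release factors and 2 of 44 initiation factors had 2 used promoters, 3 of 54 in all, against 6.51% of all protein-coding genes and 9.30% of those with a TSS. Only genes with annotated starts over 100 bp apart can readily show this. There were 17 such translation factors, of which 3 used 2 promoters (0 of 2 elongation, 1 of 2 release and 2 of 13 initiation factors), against 28.3% of the 2987 such protein-coding genes with a TSS.

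eRF3 used a downstream promoter (arm 2L, 12434818 to 12435072) with 1386 ± 50.6, or 73.7% of its coverage, and an upstream promoter (12434446 to 12434546) with 468 ± 29.3, or 24.9%. eIF4E1 used an upstream promoter (arm 3L, 9402177 to 9402465, minus strand) with 477 ± 31.5, or 62.8%, and a downstream promoter (9401608 to 9401966) with 282 ± 22.1, or 37.2%. This upstream promoter joins separate sets of TSSs near different annotated starts. eIF2gamma used an upstream promoter (arm 3R, 15263304 to 15263477, minus strand) with 942 ± 38.8, or 81.4%, and a downstream promoter (15262929 to 15262942) with 206 ± 21.2, or 17.8%. By deposited coverage the 2 promoters of eIF2gamma differed in form too, since the downstream one is the narrower and holds 52.6% at its strongest TSS.

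**Figure D4:**
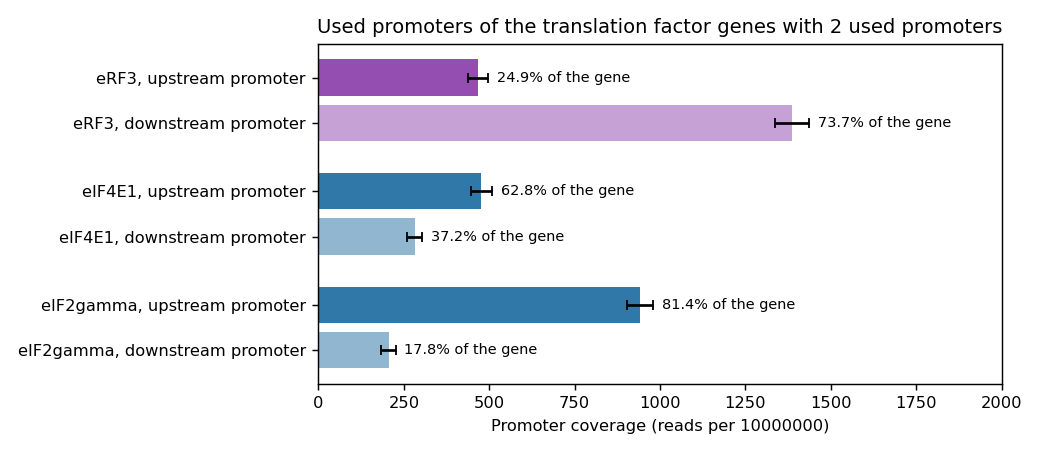
Coverage (reads per 10000000) of each used promoter in the 3 translation factor genes with 2 of them, with bars drawn from 0 and counting SEs. The downstream promoter is the stronger at eRF3 (73.7%), and the upstream promoter at eIF4E1 (62.8%) and eIF2gamma (81.4%).

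A rule based on a share hides weak promoters of strong genes. At eIF4A a further start inside the gene, at 5982594, had 523 ± 28.6, only 2.68% of the gene yet close to the whole coverage of eIF4G1. eEF1alpha1 has 4 annotated starts more than 100 bp apart. Its coverage lay at 11892122 (99.6%), with 78.8 ± 12.7 (0.325%) at 11893542. eEF1alpha2 had 95.9% at 1 start and 1 TSS of 6.85 at another. All 3 genes thus initiated almost wholly at 1 annotated start.

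Some promoters could not be given to 1 gene. All 49 TSSs of eIF5 also lie within 200 bp of a start of CG46312, all 30 of eIF4G2 near CG33111, and the upstream promoter of eIF2gamma near Su(var)3-9, a histone methyltransferase gene. For eIF5 and eIF4G2 the whole coverage is that of the shared promoter, and for eIF2gamma 81.4% of it is. With these 3 genes left out, the initiation median was 403 in place of 483, and only eIF4E1 of the initiation factors had 2 used promoters.

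Initiation on the opposite strand, away from the gene, was counted as well. A TSS on that strand within 500 bp upstream of the strongest TSS was found for 3 of 8 elongation factors, 2 of 2 release factors and 19 of 36 initiation factors with a TSS, 24 of 46 in all, against 45.5% of all protein-coding genes with a TSS. In 17 of the 24, an annotated start lay near the strongest such TSS on that strand, against 65.2% of all protein-coding genes with such a TSS. Opposite coverage is the sum over all such TSSs, whereas distance and neighbour are those of the strongest. The highest sum was next to eIF1, which itself had 1643, against an opposite coverage of 19417. Its strongest opposite TSS was at 424 bp, where RpL28, a ribosomal protein gene, begins. eIF2Bdelta had 173, against an opposite coverage of 942, with the strongest TSS at 132 bp, near roh. eIF2gamma had 1158, against 929, with the strongest TSS at 119 bp, where Set begins. Among the release factors, eRF1 had 384 near Rbbp5 and eRF3 had 191 near SC35. eEFSec, the weakest elongation factor, had 140.0 near Acox57D-p. Neighbours of the eEF5 and eEF1delta promoters gave only 4.91 and 21.8, away from any annotated start.

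Other genes of protein synthesis give these values a scale. The 54 translation factors had a median of 627, against 10505 for 93 ribosomal protein genes, of which 82 were in the top 10%. Ribosomal protein genes had 43.8% of coverage at the strongest TSS and a width of 7 bp, by median, against 29.9% and 23 bp for the translation factors. The strongest TSS had its value from the smallest library in 13 of 46 translation factors and in 57 of 88 ribosomal protein genes, against 34.6% of all protein-coding genes with a TSS. The part of this in the difference was not tested. A snoRNA gene lies inside 1 of 54 translation factor genes on the same strand (eEF1alpha1) and inside 29 of 93 ribosomal protein genes, against 0.601% of all protein-coding genes.

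The tRNA synthetases, which charge tRNAs for elongation, had a median of 154 over 33 genes and a width of 40.5 bp. It was 436 over the 18 genes whose symbol does not end in -m and 35.9 over the 15 mitochondrial ones, which end in -m. Of 16 other translation genes outside the symbol rule, 3 were in the top 10%: Rack1, a ribosome-bound scaffold, at 4785 ± 92.7, pAbp, the poly(A)-binding protein, at 2824 ± 68.1, and Thor, which sequesters eIF4E, at 1105 ± 39.3. Thor had 91.9% of its coverage at 1 TSS, more than any translation factor in the symbol set with at least 20 reads. Paip2, an inhibitor of pAbp, had 1000.6, and the eIF2alpha kinases PEK and Gcn2 had 289 and 40.03. The mitochondrial factors were at 14.5 (mIF2) to 253 (mEFTu1).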

How the data were processed

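Embryonic csRNA-seq was measured in 3 libraries, with 1 input library that was not used here. The authors trimmed adapters, aligned reads to dm6 with STAR (2.7.9a per the submitters' processing notes) and called TSSs from 5′ read ends with HOMER (4.11) at a stated minimum of 3. The deposited value is a coverage signal, 1 per TSS for the whole experiment, and the fewest reads behind a value were 2. How multiply mapped reads were treated is not given in the sources used here.

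Each deposited coverage was divided by the value of 1 read in its library, which gave whole reads for 232302 of 232302 TSSs. TSSs were assigned to transcript starts of Ensembl 115 (BDGP6.54, the same chromosome coordinates as dm6), promoters were split at gaps over 100 bp, and a counting SE was the root of the summed squared read values. Ratios have 95% counting intervals on the log scale. The scripts were tested on simulated data. The software was pandas 2.3.3 and NumPy 2.4.6 under Python 3.11.15, with figures from matplotlib 3.10.9.

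The members were set by symbol alone, and no measured value entered that rule. The rule and the lists were, however, chosen with earlier results of these data known. Values were given for every elongation and release factor, the 8 initiation factors of highest coverage, the 3 lowest members with a TSS, paralogues, members with no TSS and members with 2 used promoters. Other genes named, among them the subunits of lowest coverage in eIF2 and eIF2B, genes near the top 10% limit and opposite-strand neighbours, were chosen after their values were seen. The alternatives tried were the distance to a start, a read minimum, the gap and share that define promoters, the strongest TSS in place of the sum, the nearest gene only, the deduplicated list and the library that gave a value. Alternatives for the class of eEF5, shared promoters, genes without a TSS, coverage, reads and the ratios between genes were chosen after seeing the data. The deposited windows and the log2 scores were not used, and genome sequence, and with it the TCT start motif, was not analysed here.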

Additional observations from a re-analysis of the deposited data

How the results depend on the processing

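Of 134 alternative values, 81 stayed within their counting interval or count limit and 53 moved. Widths have no counting interval, so any change of a width was called moved, however small. The interval of the initiation share was wide, at ± 9.72 points from the gene at the middle of the class. The split into 81 and 53 therefore depends on these limits and does not measure the size of the changes. Medians and counts of a single class have no direction, so only the 34 values that compare elongation with initiation could reverse, and 0 did. Ratios between genes were not among the 134. With a library left out, the order changed for eEF2 and eEF1alpha1, eEF1beta and eEF5, eRF1 and eRF3, and eIF2beta and eIF3e. The other ratios that could be formed kept their direction. The elongation over initiation log2 ratio of medians was 2.53 to 3.61 over 12 alternatives, the share difference 6.11 to 14.4 points over 11, and the width difference -20.0 to -6.5 bp over 11, each in the same direction as the main value (3.07, 11.6 and -16.5).

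With starts within 50 bp, the initiation median was 331, the log2 ratio 3.61, the initiation width 18.5 bp and the width difference -8 bp. With at least 4 reads per TSS they were 413, 3.27, 20.0 bp and -11 bp, with an elongation width of 9 bp. By the strongest TSS, and in the deduplicated list, the medians were 1262 (elongation) and 119 (initiation) and the log2 ratio was 3.40. By the strongest TSS 8 initiation factors were in the top 10%, and in the deduplicated list 6. With a used promoter set at 20% of coverage, 1 initiation factor had 2.

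Leaving out TSSs of the largest, middle or smallest library in turn removes those positions altogether and is not a left-out replicate. The elongation medians were 2325, 2695 and 1973 and the initiation medians 297, 294 and 308. The elongation widths were 8, 9 and 10.0 bp, the initiation widths 28, 21 and 29 bp, and the differences -20.0, -12 and -19 bp. Without the middle library the log2 ratio was 3.20, and without the smallest 2.68. The elongation share was 44.7% without the largest and 49.6% without the smallest.

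Alternatives chosen after seeing the data gave the following. With eEF5 among the initiation factors, the elongation median was 3475, the log2 ratio 2.74, and the widths 9 and 27.5 bp (-18.5 bp). With shared-promoter genes left out, the initiation median was 403, the log2 ratio 3.33, the width 29.5 bp (-19 bp) and the count with 2 used promoters 1. Without genes that had no TSS, the initiation median was 698 and the log2 ratio 2.53. In the top 10% the initiation width was 17 bp (-6.5 bp), and with 100 reads the elongation width was 9 bp (-18 bp). The cause was not tested for any of these.

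No paired analysis was possible because each TSS has 1 value for the whole experiment. Libraries could not be left out in turn for the same reason, and the alternatives on the TCT start, which need genome sequence, were not run. Values under about 100 rest on fewer than 60 reads.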

Other observations

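Start sites inside the genes, away from annotated starts, were also counted. On the gene's strand they were found in 37 of 54 translation factor genes, against 45.9% of all protein-coding genes. Over the 46 genes with a promoter TSS, such TSSs had a median of 1.41% of the promoter coverage, against 1.30% for all 9782 protein-coding genes with one. They were most numerous in eEF2 (96 TSSs, coverage 852), eEF1alpha1 (88 TSSs, 506) and eIF4A (37 TSSs, 260.0), the 3 genes of highest promoter coverage. At eIF3a, 14 TSSs with coverage of 63.3 compare with 264 at its promoter. eIF4E5 and eIF4E7, which had no promoter TSS, had 1 TSS each inside the gene, at 5.06 and 3.37.

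Among deduplicated TSSs ranked by coverage, the strongest TSSs of the translation factors ranked 33 (eEF1alpha1), 44 (eIF4A), 77 (eEF2) and 457 (eEF1beta). eEF2 ranked lower than eIF4A there, although its summed coverage was higher.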
